A study of Mus musculus with 9 samples.

Results

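The genes described here are 10 transcription factors that shape effector and exhausted CD8+ T cells, namely Tbx21, Eomes, Id2, Prdm1, Zeb2, Runx3, Irf4, Batf, Bhlhe40 and Tox. They were taken by symbol from the tables of all genes, not by a threshold on a measured value, and all 10 of them were found among the 20618 genes measured. RNA was sequenced from CD8+ T cells of wild type mice, the lymphocytes that kill infected and malignant cells, kept for 24 h in 1 of 3 media. One medium held 2 mM inosine and hypoxanthine, and another held 2 mM inosine alone, both without glucose. The third, used here as the reference, held 2 mM glucose and no inosine. The hypoxanthine and glucose media thus differ in glucose, inosine and hypoxanthine together. All media contained 10% dialyzed FBS, a serum from which small molecules have been removed, and live cells, about 80%, were sorted. Inosine is a purine nucleoside that cells split into ribose phosphate and the base hypoxanthine. The labels print the hypoxanthine dose with a damaged unit, so it is not given here. They give no strain, age or mode of activation of the cells, and the term exhaustion below refers to known roles of genes, not to a state assigned to these cells.

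An activated CD8+ T cell becomes a killer when T-box factors, BLIMP-1, ID2 and ZEB2 switch on cytotoxic genes and shut off the programme of naive and memory cells. Early after the T cell receptor fires, IRF4 and the AP-1 factor BATF bind DNA together and open the chromatin on which those factors act. When the receptor stays engaged for long, NFAT and the NR4A factors induce TOX, which sustains the exhausted state marked by inhibitory receptors.

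Each medium was represented by 3 libraries, and the 9 libraries belong to 1 batch by the labels. Between 28282024 and 45923085 reads per library were assigned to genes whose whole reads could be recovered, and 16245 to 17217 genes were above 0. Mitochondrial transcripts took 4.05% to 5.84% of FPKM with hypoxanthine, 4.47% to 6.5% with inosine alone and 4.03% to 4.7% with glucose. The cells carried the markers of their label: the summed level of Cd8a and Cd8b1 was 289 to 317 FPKM with hypoxanthine, 153 to 207 FPKM with inosine alone and 168 to 175 FPKM with glucose. The summed level of the 4 measured T cell markers was 846 to 909 FPKM with hypoxanthine, 469 to 623 FPKM with inosine alone and 511 to 559 FPKM with glucose, so both marker sums moved with the hypoxanthine medium, and their part in the results below was not tested. Among the T cell markers the Cd3 genes rose but Cd2 did not, with a mean of 85.4 FPKM with hypoxanthine, 95.9 FPKM with inosine alone and 91.7 FPKM with glucose. The 5 B cell markers summed to at most 1.69 FPKM with hypoxanthine, 1.68 FPKM with inosine alone and 1.84 FPKM with glucose, and the 3 CD4 and regulatory T cell markers stayed at or below 0.384 FPKM in sum in all 9 libraries. The 3 NK cell markers reached at most 0.241 FPKM in sum, with Klra8 at 0 in the inosine libraries and Ncr1 at 0 in the glucose libraries. The 5 myeloid markers summed to 3.08 to 3.77 FPKM with hypoxanthine, 2.21 to 3.85 FPKM with inosine alone and 2.83 to 3.86 FPKM with glucose, and the 4 erythroid and platelet markers to at most 0.143 FPKM. The 4 dendritic cell markers summed to 1.42 to 2.58 FPKM with hypoxanthine, 0.376 to 0.738 FPKM with inosine alone and 0.408 to 2.93 FPKM with glucose, and the part of their difference in the results was not tested. Whether replicate libraries derive from different mice or wells is not given by the labels, so p-values measure only the spread between these libraries, which may be technical.

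With hypoxanthine present, Irf4, Tox, Bhlhe40, Tbx21 and Zeb2 rose and Id2, Prdm1 and Batf fell relative to inosine alone. Eomes and Runx3 did not pass the test. The largest differences were a 3.43-fold higher level of Tox and a 2.36-fold higher level of Irf4, while Id2 was lower by 1.98 times and Prdm1 by 2.15 times. The factors of the same programme therefore did not move one way, with members of the effector group on both sides. In total 8 of the 10 factors were called at an adjusted p under 0.05 in limma, a linear model across all genes, against 21.3% of all 20618 genes and 32.9% of the 9947 genes whose mean reached 1 FPKM. Zeb2, one of the called factors, is not in that set of 9947 genes, here and below, since its mean over all libraries was under 1 FPKM. Of the factors, 5 were called higher and 3 lower, against 11.7% and 9.59% of all genes. In the same 8 factors the hypoxanthine libraries did not overlap the inosine libraries, which held for 34.4% of all genes and 49.3% of those whose mean reached 1 FPKM. FPKM is the authors' fragment count scaled to gene length and library size, and differences were tested on log2(FPKM + 1), a scale that understates the change of low genes such as Tox, Zeb2 and Prdm1. In such bulk samples, fewer cells of a type and less RNA per cell cannot be told apart. The count of 8 went down to 4 without hypoxanthine replicate 1, to 5 without hypoxanthine replicate 3 and to 5 without inosine replicate 3. The genes called in these fits were 3077, 2757 and 3014 in the same order, against 4382 with all 9 libraries.

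**Figure D1:**
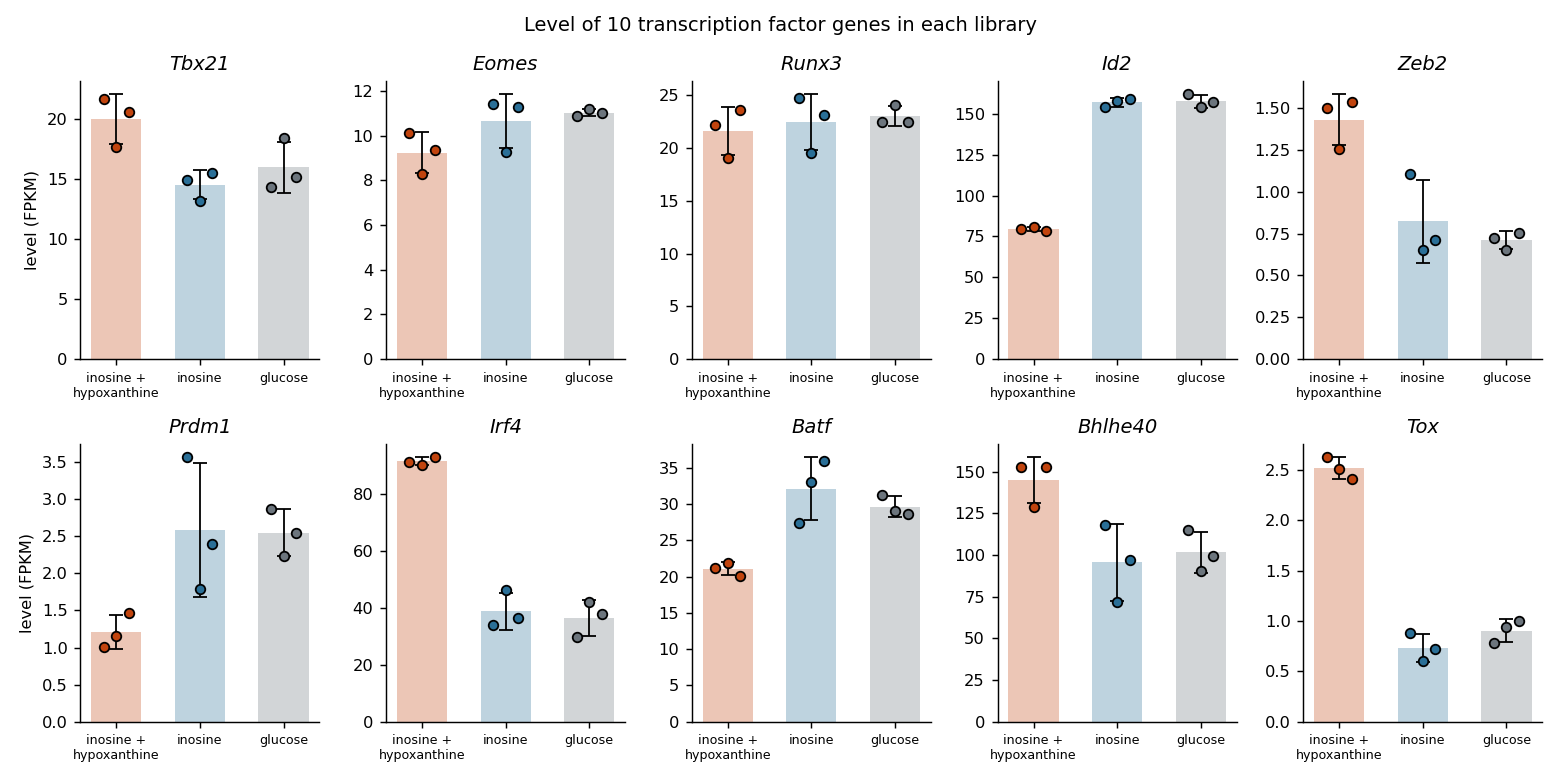
Level in FPKM (vertical axis, from 0, a separate scale per gene) of the 10 factors, with the inosine + hypoxanthine, inosine and glucose libraries from left to right. Points are single libraries, bars are means and error bars are SD of 3 libraries; the hypoxanthine points of Id2, Irf4, Tox, Batf, Prdm1, Zeb2 and Bhlhe40 stand clear of both other media.

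Against glucose, 6 of the 10 factors were called, with Irf4, Tox and Zeb2 higher and Id2, Prdm1 and Batf lower, beside 20.3% of all genes and 30.9% of those whose mean reached 1 FPKM. The 3 called higher stand beside 10.8% of all genes called higher, and the 3 called lower beside 9.55%. The hypoxanthine and glucose libraries did not overlap in 8 of the factors, all but Tbx21 and Runx3, which held for 37.6% of all genes and 55.0% of those whose mean reached 1 FPKM. Both comparisons use the same hypoxanthine libraries, so their values are given side by side. Inosine alone against glucose called 0 of the 10 factors in limma, with an adjusted p of 1 for each, beside 2 of the 20618 genes (0.0097%, with 0.00485% higher and 0.00485% lower) and 584 genes at an unadjusted p under 0.05; limma voom on recovered reads called 0 genes. For all 10 factors the inosine and glucose libraries overlapped, while 5.05% of all genes and 5.13% of those whose mean reached 1 FPKM had no overlap, and the 95% interval of the difference included 0. The 95% interval of the difference between inosine alone and glucose on the log2(FPKM + 1) scale was narrow for Id2, at -0.13 to 0.12, and wide for Bhlhe40, at -0.5 to 0.29, and for Prdm1, at -0.39 to 0.37.

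**Figure D2:**
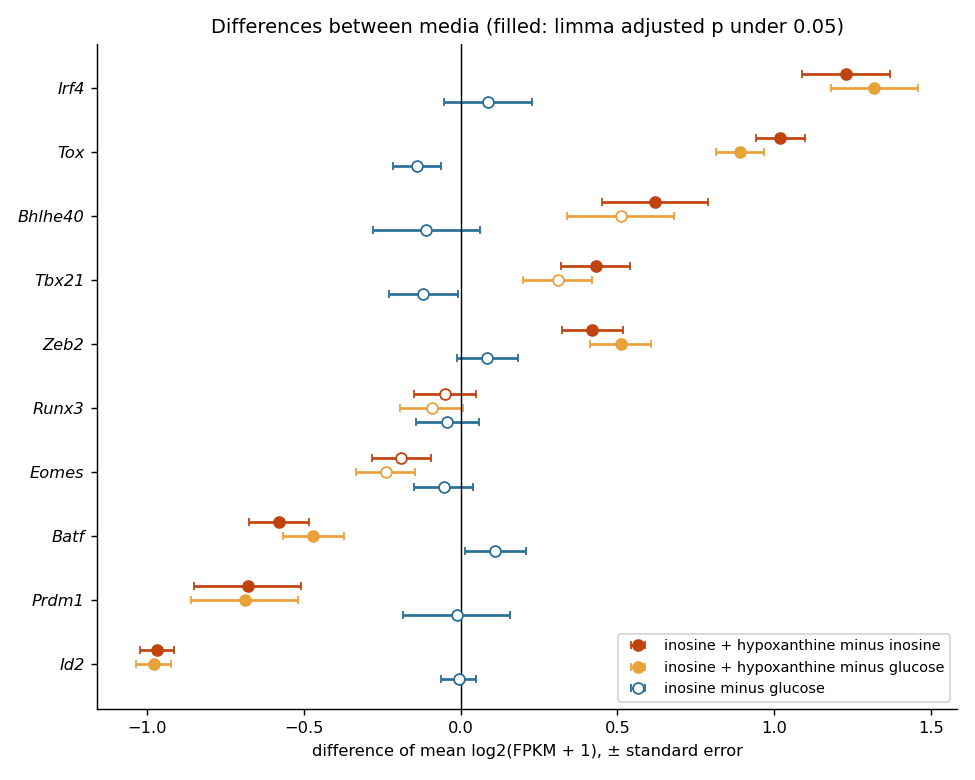
Difference of mean log2(FPKM + 1) with its standard error (horizontal axis) for each factor in the 3 comparisons, hypoxanthine against inosine alone on top, then hypoxanthine against glucose, then inosine alone against glucose. Filled points passed limma at an adjusted p under 0.05; the points for inosine alone against glucose are all open, between -0.14 and 0.11.

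ID2, considered first among the factors of effector differentiation, is a helix-loop-helix protein without a DNA-binding region that captures E proteins and so favours effector cells. Id2 (chromosome 12, 25093799 to 25096092 on GRCm38.p6) had 79.4, 80.6 and 78.2 FPKM with hypoxanthine, against 154, 158 and 159 FPKM with inosine alone and 162, 154 and 157 FPKM with glucose. All 3 hypoxanthine libraries lay far below the other 6, which overlapped each other. Id2 fell by 0.97 ± 0.055 (SE) on the log2(FPKM + 1) scale against inosine alone (limma, adjusted p = 1.97e-05) and by 0.98 ± 0.055 against glucose (adjusted p = 2.25e-05). The gene rested on 4643 to 13319 recovered reads per library, and its coefficient of variation within a medium was 1.52% with hypoxanthine, 1.64% with inosine alone and 2.48% with glucose.

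Prdm1 encodes BLIMP-1, a zinc finger repressor of terminal effector cells that silences memory genes. Prdm1 (chromosome 10, 44437174 to 44528558) had 1.01, 1.15 and 1.46 FPKM with hypoxanthine, against 3.57, 1.79 and 2.39 FPKM with inosine alone and 2.87, 2.24 and 2.54 FPKM with glucose. The hypoxanthine libraries were the 3 lowest of the 9, and inosine replicate 2 came nearest to them. The fall was 0.68 ± 0.17 in log2(FPKM + 1) against inosine alone (limma, adjusted p = 0.0209) and 0.69 ± 0.17 against glucose (adjusted p = 0.0203). The call against inosine alone was lost without hypoxanthine replicate 1 (adjusted p = 0.0767), without hypoxanthine replicate 2 (0.0643) and without inosine replicate 3 (0.0563). It was also lost in a fit of the 6 libraries alone (0.0612) and in that fit with the replicate number as a block (0.0986), and it held under 13 of 18 alternatives, with a range of 0.0045 to 0.0986. Against glucose it was lost without hypoxanthine replicate 1 (0.0722), hypoxanthine replicate 2 (0.064), glucose replicate 1 (0.0701) or glucose replicate 3 (0.063), within a range of 0.00381 to 0.0722. With 330 to 947 recovered reads per library and a coefficient of variation of 35.1% with inosine alone, Prdm1 had the highest such coefficient of the 10 factors in any medium.

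The related T-box factors T-bet, encoded by Tbx21, and EOMES both activate killer and interferon genes, T-bet more in short-lived effectors and EOMES more in memory cells. Tbx21 (chromosome 11, 97098007 to 97115331) had 21.7, 17.7 and 20.6 FPKM with hypoxanthine, against 14.9, 13.2 and 15.5 FPKM with inosine alone and 14.3, 18.4 and 15.2 FPKM with glucose. The hypoxanthine libraries lay above all 3 inosine libraries, but glucose replicate 2 was above hypoxanthine replicate 2. Tbx21 rose by 0.43 ± 0.11 in log2(FPKM + 1) against inosine alone (limma, adjusted p = 0.0247), and its difference of 0.31 ± 0.11 against glucose did not pass (adjusted p = 0.0835). The call against inosine alone was lost without hypoxanthine replicate 1 (adjusted p = 0.0892), hypoxanthine replicate 3 (0.0891) or inosine replicate 2 (0.0659), and it held under 15 of 18 alternatives, with a range of 0.00758 to 0.0892. Without glucose replicate 2 the difference against glucose passed (adjusted p = 0.0371), as it did under 4 of 18 alternatives in all, with a range of 0.0371 to 0.264.

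Eomes (chromosome 9, 118478186 to 118486132) had 10.1, 8.27 and 9.35 FPKM with hypoxanthine, against 11.4, 9.28 and 11.3 FPKM with inosine alone and 10.9, 11.2 and 11 FPKM with glucose. The hypoxanthine and inosine libraries overlapped, while all 3 hypoxanthine libraries lay below the tightly grouped glucose libraries. The difference in log2(FPKM + 1) was -0.19 ± 0.094 against inosine alone, with a 95% interval of -0.4 to 0.027 (limma, adjusted p = 0.212). Against glucose it was -0.24 ± 0.094 (adjusted p = 0.11), and it passed without inosine replicate 2, which enters the shared estimate of the spread (adjusted p = 0.0479, in a range of 0.0479 to 0.29).

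Zeb2 encodes a zinc finger repressor that acts with T-bet in terminal effectors. Zeb2 (chromosome 2, 44983512 to 45117442) had 1.5, 1.26 and 1.54 FPKM with hypoxanthine, against 1.11, 0.65 and 0.712 FPKM with inosine alone and 0.725, 0.65 and 0.755 FPKM with glucose. The hypoxanthine libraries were the 3 highest, and inosine replicate 1 stood above the other 5. Zeb2 rose by 0.42 ± 0.097 in log2(FPKM + 1) against inosine alone (limma, adjusted p = 0.0154) and by 0.51 ± 0.097 against glucose (adjusted p = 0.00699). Without hypoxanthine replicate 1 (adjusted p = 0.0555), hypoxanthine replicate 3 (0.0635) or inosine replicate 3 (0.0599) the call against inosine alone was lost, and it held under 14 of 17 alternatives, with a range of 0.00274 to 0.0635. The alternative with a minimum mean of 1 FPKM leaves Zeb2 out.

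Runx3 encodes the RUNX factor that silences Cd4 and maintains killer genes in the CD8 lineage. Runx3 (chromosome 4, 135120645 to 135177990) had 22.2, 19.1 and 23.6 FPKM with hypoxanthine, against 24.7, 19.5 and 23.1 FPKM with inosine alone and 22.5, 24.1 and 22.5 FPKM with glucose. The 3 media overlapped, and the highest library exceeded the lowest by 1.3 times, the smallest range among the 10 factors. The difference in log2(FPKM + 1) was -0.05 ± 0.1 against inosine alone, with a 95% interval of -0.29 to 0.19 (limma, adjusted p = 0.797), and -0.093 ± 0.1 against glucose (adjusted p = 0.596).

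Among the factors induced by the T cell receptor, Irf4 and Batf moved in opposite directions with hypoxanthine. IRF4 is an interferon regulatory factor whose level follows the strength of receptor signalling, and it binds composite sites with BATF. Irf4 (chromosome 13, 30749233 to 30766981) had 91.4, 90.2 and 93 FPKM with hypoxanthine, against 34, 46.1 and 36.3 FPKM with inosine alone and 29.7, 42.2 and 37.7 FPKM with glucose. Every hypoxanthine library was above every other library, and replicate 2 was the highest of both other media. Irf4 rose by 1.23 ± 0.14 in log2(FPKM + 1) against inosine alone (limma, adjusted p = 0.000584) and by 1.32 ± 0.14 against glucose (adjusted p = 0.000448). The coefficient of variation of Irf4 was 1.53% with hypoxanthine, 16.6% with inosine alone and 17.3% with glucose.

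Batf (chromosome 12, 85686720 to 85709087) had 21.2, 21.9 and 20.1 FPKM with hypoxanthine, against 27.4, 33 and 36 FPKM with inosine alone and 31.3, 29 and 28.6 FPKM with glucose. All hypoxanthine libraries lay below the other 6. Batf fell by 0.58 ± 0.097 in log2(FPKM + 1) against inosine alone (limma, adjusted p = 0.00358) and by 0.47 ± 0.097 against glucose (adjusted p = 0.00945). Batf was lower by 1.53 times in FPKM against inosine alone and by 1.41 times against glucose.

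Bhlhe40 encodes a helix-loop-helix repressor that T cells induce on activation and that restrains interleukin 10 in helper T cells. Bhlhe40 (chromosome 6, 108660629 to 108666925) had 153, 129 and 153 FPKM with hypoxanthine, against 118, 71.7 and 97.1 FPKM with inosine alone and 115, 90.2 and 99.5 FPKM with glucose. The hypoxanthine libraries were the 3 highest of the 9, and replicate 2 was the lowest of each medium. Bhlhe40 rose by 0.62 ± 0.17 in log2(FPKM + 1) against inosine alone (limma, adjusted p = 0.0339), and its difference of 0.51 ± 0.17 against glucose did not pass (adjusted p = 0.0697). The call against inosine alone held under 10 of 18 alternatives, the fewest among the 8 called factors. It was lost in a fit of the 6 libraries alone (adjusted p = 0.0783), with no trend (0.0587), without both libraries of the highest mitochondrial share (0.0512), and on leaving out hypoxanthine replicate 1 (adjusted p = 0.104) or 3 (0.114), inosine replicate 2 (0.0586) or 3 (0.081), or glucose replicate 3 (0.0585), in a range of 0.00564 to 0.114. The difference against glucose passed without inosine replicate 1 (0.0356) and without inosine replicate 2 (0.0176), and under 8 of 18 alternatives in all, limma voom on recovered reads included (0.0315), with a range of 0.012 to 0.193.

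TOX is a high mobility group protein that keeps exhausted CD8+ T cells alive during chronic stimulation. Tox (chromosome 4, 6686353 to 6991557) had 2.63, 2.51 and 2.41 FPKM with hypoxanthine, against 0.877, 0.603 and 0.725 FPKM with inosine alone and 0.78, 0.938 and 0.999 FPKM with glucose. The lowest hypoxanthine library was above the highest of the other 6. Tox rose by 1.02 ± 0.077 in log2(FPKM + 1) against inosine alone (limma, adjusted p = 7.38e-05) and by 0.89 ± 0.077 against glucose (adjusted p = 0.000154). In FPKM it was 3.43-fold higher than with inosine alone and 2.78-fold higher than with glucose, so the log2(FPKM + 1) difference understates it. These values rest on 451 to 612 recovered reads per library with hypoxanthine, 136 to 166 with inosine alone and 128 to 266 with glucose.

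The calls of Id2, Irf4, Batf and Tox held in both comparisons under all 18 alternatives tried. In the authors' deposited table, whose log2 fold changes run as inosine alone over hypoxanthine, the adjusted p was 1.38e-33 for Id2, 1.5e-21 for Tox and 1.24e-19 for Irf4. The same 8 factors had an adjusted p under 0.05 in the authors' deposited table, the largest being 0.00317 for Bhlhe40. That table rests on the same libraries, and its share of all genes under 0.05 or marked significant was not taken. The column of significant genes in the authors' deposited table marks 4 of these 8 (Id2, Prdm1, Irf4 and Tox) and not Tbx21, Zeb2, Batf or Bhlhe40. The marked genes had log2 fold changes there of 1.02 for Id2, 1.14 for Prdm1, -1.2 for Irf4 and -1.73 for Tox. Those of the unmarked genes were smaller in size, at -0.42 for Tbx21, -0.78 for Zeb2, 0.65 for Batf and -0.56 for Bhlhe40. Against glucose, the authors' deposited table gave an adjusted p of 0.0214 for Tbx21, 0.0142 for Eomes and 6.26e-05 for Bhlhe40, which did not pass here. Strand is not stated for these libraries, and 4 factors overlap another annotated gene, whose level was at or below 0.242 FPKM in each medium: Gm33408 for Eomes, Zeb2os for Zeb2, 0610040F04Rik for Bhlhe40 and Gm11802 for Tox.

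The order of the factors by level also differed between media. With hypoxanthine, Bhlhe40 was highest with a mean of 145 FPKM, followed by Irf4 at 91.5 FPKM and Id2 at 79.4 FPKM, and no libraries of these neighbours overlapped. With inosine alone the order began with Id2 at 157 FPKM, then Bhlhe40 at 95.8 FPKM, Irf4 at 38.8 FPKM and Batf at 32.2 FPKM, the last pair overlapping. With glucose it began with Id2 at 158 FPKM, then Bhlhe40 at 102 FPKM, Irf4 at 36.5 FPKM and Batf at 29.7 FPKM, and again the last pair overlapped. Id2 thus stood behind Bhlhe40 and Irf4 with hypoxanthine and ahead of both in the other media. In the middle, Runx3 at 21.6 FPKM, Batf at 21.1 FPKM and Tbx21 at 20 FPKM could not be ordered with hypoxanthine, since their libraries overlapped. At the low end, Tox at 2.52 FPKM stood above Zeb2 at 1.43 FPKM and Prdm1 at 1.21 FPKM with hypoxanthine. With inosine alone Prdm1 at 2.59 FPKM stood above Zeb2 at 0.824 FPKM and Tox at 0.735 FPKM, and with glucose Prdm1 at 2.55 FPKM stood above Tox at 0.906 FPKM and Zeb2 at 0.71 FPKM.

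The promoters of 4 of the factors are shown because these genes carried the falls and the largest rise among the factors with a listed promoter. RefSeq's table on GRCm38.p6 holds promoters, 250 bases before to 50 after a start, for 8 of the 10 factors. Id2 runs at chr12:25096043-25096342 on the minus strand, Prdm1 at chr10:44458699-44458998 on the minus strand, inside the annotated span of that gene, Batf at chr12:85686470-85686769 on the plus strand and Irf4 at chr13:30748983-30749282 on the plus strand. Capitals mark matches on either strand to AP-1 TGANTCA, the palindromic E-box CACGTG, the ZEB-type E-box CAGGTG, RUNX TGTGGT, T-box GGTGTGA, the NFAT core GGAAA or the IRF repeat (GAAA, any 2 bases, GAAA).
Id2: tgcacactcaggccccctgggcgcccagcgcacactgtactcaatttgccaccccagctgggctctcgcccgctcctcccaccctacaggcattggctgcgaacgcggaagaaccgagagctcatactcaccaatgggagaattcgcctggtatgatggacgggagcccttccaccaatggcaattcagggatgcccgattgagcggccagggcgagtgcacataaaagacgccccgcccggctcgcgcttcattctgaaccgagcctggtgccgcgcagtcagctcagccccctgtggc
Prdm1: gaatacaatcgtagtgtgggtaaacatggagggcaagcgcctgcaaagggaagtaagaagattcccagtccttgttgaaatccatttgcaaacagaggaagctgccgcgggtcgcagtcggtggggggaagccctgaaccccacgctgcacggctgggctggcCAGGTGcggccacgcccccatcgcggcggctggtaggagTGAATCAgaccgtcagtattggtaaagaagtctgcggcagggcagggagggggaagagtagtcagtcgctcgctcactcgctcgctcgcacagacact
Batf: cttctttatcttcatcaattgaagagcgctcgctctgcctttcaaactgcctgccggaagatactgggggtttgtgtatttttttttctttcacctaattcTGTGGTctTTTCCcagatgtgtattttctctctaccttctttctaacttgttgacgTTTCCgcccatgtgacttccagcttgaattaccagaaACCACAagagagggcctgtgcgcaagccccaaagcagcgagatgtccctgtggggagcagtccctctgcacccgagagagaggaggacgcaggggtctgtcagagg
Irf4: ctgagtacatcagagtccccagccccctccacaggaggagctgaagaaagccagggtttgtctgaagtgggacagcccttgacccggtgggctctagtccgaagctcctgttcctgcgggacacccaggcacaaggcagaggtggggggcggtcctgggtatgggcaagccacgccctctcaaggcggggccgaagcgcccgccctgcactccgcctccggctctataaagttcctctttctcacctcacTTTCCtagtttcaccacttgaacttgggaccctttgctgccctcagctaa
The Prdm1 window held 1 AP-1 match, beginning 48 bases before the start, a letter pattern found in 7.81% of all 32851 promoters, and 1 ZEB-type E-box, found in 20.2%. The Batf window held 2 RUNX matches, a pattern found in 16.8% of promoters, and 2 matches to the NFAT core, which 61.3% of promoters hold. Irf4 held 1 NFAT core match, and Id2 held none of the capitalised patterns in this window. The other patterns are in 7.15% of promoters for the palindromic E-box, 3.98% for the T-box and 3.44% for the IRF repeat. The general E-box CANNTG, which includes both named E-boxes and is in 72.3% of promoters, was searched too and is not capitalised. Its matches were 1 in Id2, 2 in Prdm1, 3 in Batf and 1 in Irf4. A match is a description of the letters and shows no binding.

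Because several factors work against a relative or rival, the log2 ratio of FPKM was also taken within each library for 8 pairs. Id2 over Id3, the E protein inhibitor of memory precursors, was 2.01, 2.09 and 1.94 with hypoxanthine, against 3.78, 4.2 and 4.1 with inosine alone and 3.88, 3.69 and 3.9 with glucose. Id3 itself rose with hypoxanthine to 19.7 ± 0.692 FPKM, against 9.71 ± 1.37 FPKM with inosine alone and 11.2 ± 0.716 FPKM with glucose (SD, n = 3 each; limma, adjusted p = 0.000284 against inosine alone). The inhibitor pair thus lay closer together with hypoxanthine, Id2 lower and Id3 higher, with no overlap between hypoxanthine and the other libraries.

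The ratio of Batf over Bach2, whose product competes with AP-1 factors for DNA and preserves memory cells, was 1.4, 1.48 and 1.15 with hypoxanthine, against 3.35, 4.15 and 4.07 with inosine alone and 3.6, 3.63 and 3.62 with glucose. Prdm1 over Bcl6, factors that repress each other's genes, had a mean log2 ratio of 1.15 with hypoxanthine, 3.81 with inosine alone and 3.25 with glucose, but Bcl6 was at or below 0.598 FPKM in every library. Tox over Tcf7, the factor of stem-like T cells, had a mean of -1.43 with hypoxanthine, -2.58 with inosine alone and -2.45 with glucose. In these 3 ratios the hypoxanthine libraries were again separate from the other 6, toward the memory partner for Batf and Prdm1 and toward Tox against Tcf7.

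Tbx21 over Eomes had a mean log2 ratio of 1.12 with hypoxanthine, 0.45 with inosine alone and 0.52 with glucose. Zeb2 over Zeb1, a relative that favours memory cells, averaged -2 with hypoxanthine, -2.68 with inosine alone and -2.73 with glucose. Irf4 over Irf8, a relative also expressed in effector cells, averaged 0.8 with hypoxanthine, -0.68 with inosine alone and -0.86 with glucose. Irf4 was thus the higher of that pair in the hypoxanthine libraries and the lower in all other libraries. Runx3 over Runx1 averaged 6.07 with hypoxanthine, 6.04 with inosine alone and 6.1 with glucose, and the libraries overlapped. For the other 7 pairs the hypoxanthine libraries overlapped neither medium, and the exact two-sided permutation test gave p = 0.1, the smallest that 3 against 3 libraries allow (adjusted p = 0.16 over 24 tests). No share without overlap was taken for ratios of other genes. Of single genes whose mean reached 1 FPKM, 49.3% did not overlap against inosine alone and 55.0% against glucose. Between inosine alone and glucose, Prdm1 over Bcl6 was the 1 pair without overlap, with a difference of 0.56 and the same exact permutation p = 0.1.

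**Figure D3:**
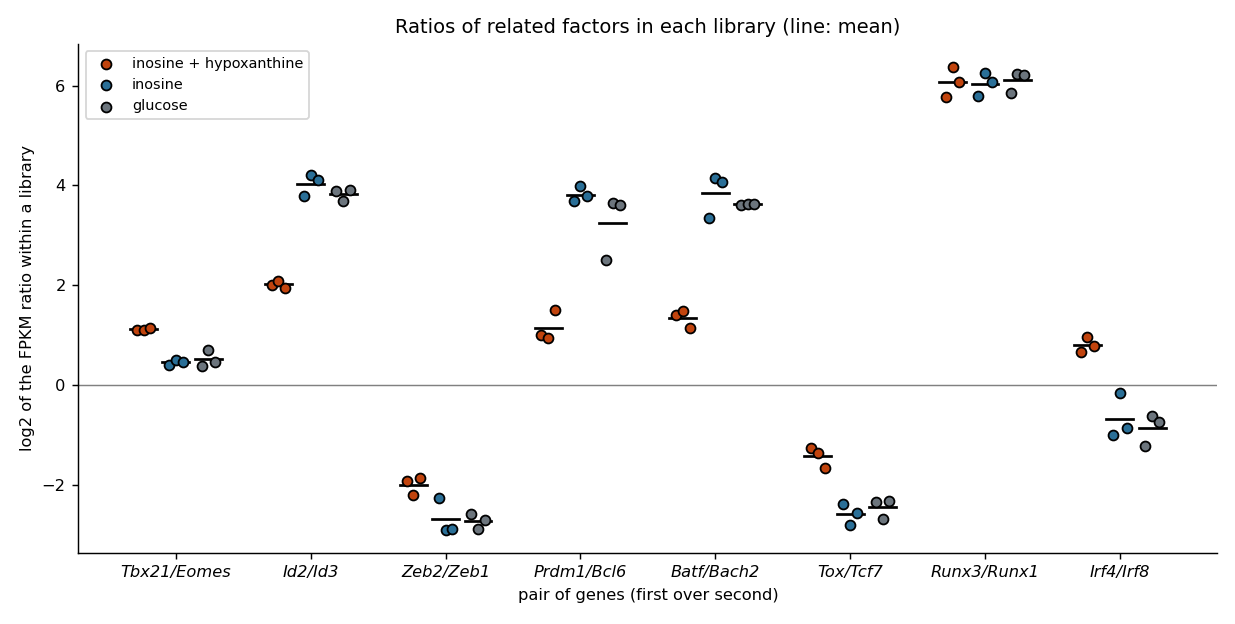
The log2 ratio of FPKM of related factors within each library (vertical axis) for 8 pairs of genes, with inosine + hypoxanthine, inosine and glucose from left to right in each pair; points are libraries and lines are means of 3. The hypoxanthine points stand apart from both other media in 7 pairs and overlap them for Runx3 over Runx1.

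Genes acting around the factors were followed in 6 lists, of which none had a called member between inosine alone and glucose. Beside the counts below, 11.7% of all genes were called higher with hypoxanthine and 9.59% lower against inosine alone. Against glucose the shares were 10.8% and 9.55%. Of genes whose mean reached 1 FPKM, 32.9% were called in either direction against inosine alone and 30.9% against glucose. No list was tested as a set. Of 17 known T-box and killer target genes, 5 rose with hypoxanthine against inosine alone (Ccl5, Fasl, Il12rb2, Nkg7 and Xcl1), 5 fell (Cxcr3, Gzmb, Il18rap, Il2rb and Prf1) and 7 did not pass, with a median difference of 0.049 in log2(FPKM + 1), against 0.0016 over all genes. The chemokine gene Ccl5 had 76.8 ± 6.96 FPKM with hypoxanthine, against 9.7 ± 1.38 FPKM with inosine alone and 11.4 ± 3.22 FPKM with glucose (SD, n = 3 each), while the granzyme gene Gzmb had 2585 ± 42.4 FPKM with hypoxanthine, against 5610 ± 88 FPKM with inosine alone and 5549 ± 127 FPKM with glucose. Targets attributed to T-bet thus lay on both sides while Tbx21 rose.

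Of 16 naive and memory genes, 9 rose against inosine alone (Bach2, Bcl6, Ccr7, Ets1, Foxo1, Id3, Klf3, Myb and Tcf7), 1 fell (Klf2) and 6 did not pass, with a median difference of 0.39 in log2(FPKM + 1). Ccr7, the receptor that guides T cells into lymph nodes, had 125 ± 0.502 FPKM with hypoxanthine, against 27.1 ± 4.38 FPKM with inosine alone and 27.6 ± 5.75 FPKM with glucose (SD, n = 3 each).

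Of 15 genes for partners of BATF and IRF4 and other AP-1 proteins, 3 rose (Fos, Fosb and Nfatc1), 2 fell (Fosl1 and Jun) and 10 did not pass, with a median difference of -0.0003 in log2(FPKM + 1). The main JUN partners by level, Junb and Jund, did not pass: Junb had 147 ± 19.9 FPKM with hypoxanthine and 121 ± 43.3 FPKM with inosine alone (SD, n = 3 each; limma, adjusted p = 0.444). Nfatc1, a transcription factor activated by calcium signals, had 28.6 ± 3.21 FPKM with hypoxanthine, against 14.8 ± 1.82 FPKM with inosine alone and 17.1 ± 2.59 FPKM with glucose.

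Around TOX, 6 of 14 genes rose (Lag3, Nr4a1, Nr4a2, Nr4a3, Pdcd1 and Tigit), 4 fell (Cd160, Cd244a, Entpd1 and Havcr2) and 4 did not pass, with a median difference of 0.042 in log2(FPKM + 1). The inhibitory receptor gene Lag3 had 134 ± 16.7 FPKM with hypoxanthine, against 22.5 ± 2.8 FPKM with inosine alone and 25 ± 1.71 FPKM with glucose (SD, n = 3 each), and Tigit had 87.4 ± 8.11 FPKM with hypoxanthine, against 33 ± 3.71 FPKM with inosine alone and 37.5 ± 1.55 FPKM with glucose. The genes that fell encode other surface molecules of exhausted cells. Havcr2, which encodes TIM-3 and is named here after its values were seen, had 15.1 ± 0.237 FPKM with hypoxanthine, against 27.9 ± 3.43 FPKM with inosine alone and 27.2 ± 3.33 FPKM with glucose. Ctla4 had 99.1 ± 7.76 FPKM with hypoxanthine and 98.4 ± 36.9 FPKM with inosine alone and did not pass (limma, adjusted p = 0.922).

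Of 24 other genes from the factors' own families, 6 rose against inosine alone, among them Id3 and Irf2, and the other 18 did not pass. In that comparison 21.3% of all genes were called. Irf2, an interferon regulatory factor, had 17.9 ± 2.23 FPKM with hypoxanthine, against 9.33 ± 0.823 FPKM with inosine alone and 10.9 ± 1.85 FPKM with glucose (SD, n = 3 each). Of 18 genes for cytokine signals that feed the factors, 11 rose, among them Il12rb2, Il21r, Il2rg and Stat4, and 2 fell, Il12rb1 and Il2rb, with a median difference of 0.42 in log2(FPKM + 1). Of the interleukin 2 receptor chains, Il2rb fell to 215 ± 16.3 FPKM with hypoxanthine, against 332 ± 50.5 FPKM with inosine alone. Il2rg rose to 252 ± 5.44 FPKM with hypoxanthine, against 183 ± 23.5 FPKM with inosine alone. Il2ra, the remaining chain, named here for completeness, did not pass. It had 132 ± 7.03 FPKM with hypoxanthine and 132 ± 13.5 FPKM with inosine alone. Against glucose, the 6 lists in the order given had 5, 7, 3, 6, 7 and 11 genes higher with hypoxanthine, and all but the family list, counted without the factors themselves, had lower ones too, with 6, 1, 2, 3 and 2 genes.

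**Figure D4:**
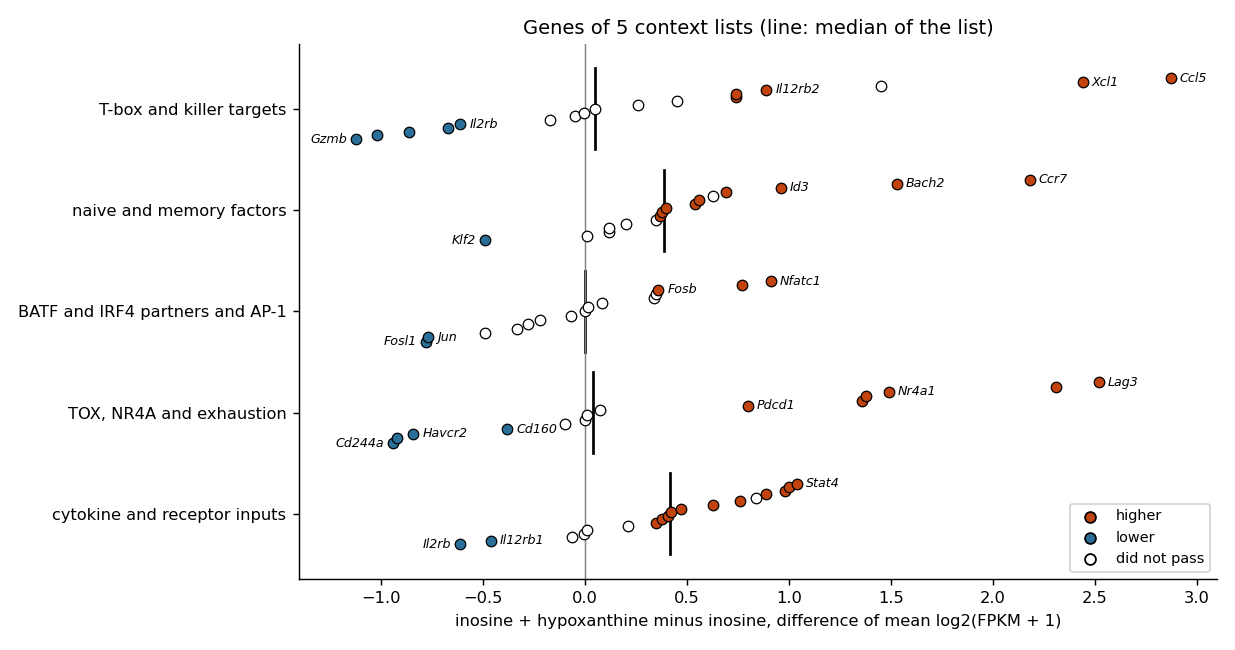
Difference of mean log2(FPKM + 1) between inosine + hypoxanthine and inosine (horizontal axis) for the genes of 5 lists, 1 row per list. Each point is 1 gene, filled where limma called it higher or lower; the vertical line is the list's median, 0.39 for naive and memory genes and 0.42 for cytokine inputs, and some called genes are labelled.

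The genes with the profile most like that of Tox across the 9 libraries, by root mean square distance of centred log2(FPKM + 1) among 6831 candidates, were Ccpg1 (0.073), Gnptab (0.076) and Il12rb2 (0.084). In FPKM these genes were 2.15-fold, 1.92-fold and 1.87-fold higher with hypoxanthine than with inosine alone, against 3.43-fold for Tox. The candidates had a mean of at least 5 FPKM, and the 1 FPKM added shrinks the change of the low gene Tox more than theirs. For Id2, among 6830 candidates, they were Gcsh (0.033), Adora2b (0.062) and Gzmb (0.068). Gcsh, a subunit of the glycine cleavage system, had 24.5 ± 0.412 FPKM with hypoxanthine, against 48.8 ± 0.8 FPKM with inosine alone and 48.6 ± 3.33 FPKM with glucose (SD, n = 3 each). Adora2b, an adenosine receptor gene, had 3.49 ± 0.177 FPKM with hypoxanthine, against 7.41 ± 0.381 FPKM with inosine alone and 7.69 ± 0.207 FPKM with glucose. These distances describe likeness over libraries that share media and depth, and no shared control is implied by them.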

How the data were processed

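RNA-seq libraries of sorted mouse CD8+ T cells from 3 media, 3 each, were used. The submitters' processing notes name mm10, HISAT2, featureCounts, Subread 2.0.1 and DESeq2, with no roles given. The deposited tables hold the authors' FPKM per gene and library. A mean signal of each medium, deposited beside it, has the form of a normalized read count averaged over libraries. Log2 fold changes and p-values printed from the tables are the authors' deposited ones.

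The test was limma 3.58.1 (R 4.3.3, trend and robust) fitted to log2(FPKM + 1) over 20618 genes and 9 libraries, with 6 residual degrees of freedom, no filter and no fold minimum. Calls required an adjusted p (Benjamini-Hochberg, over all genes) under 0.05. The FPKM values are not counts, so no count test was the main one.

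Whole reads were recovered for 20562 genes (99.73% of genes and 91.54% of FPKM) by solving the authors' group means for whole numbers, with a tolerance of 1e-06, and served for depth and limma voom. Depths printed are lower limits for that reason. Coordinates are GRCm38.p6, also called mm10, and sequences are RefSeq's.

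The 10 factors, the lists and the tests were chosen with earlier results of these data known, so no pattern here is independent of them. List genes given with values are, for each list, the 2 with the smallest adjusted p against inosine alone and the 2 with the highest mean FPKM, or a selection of these, and some list genes are not reported here. Partners in a ratio, the 3 genes most like Tox and Id2, and genes said to be chosen otherwise were named too. The fit was also run on simulated counts with a fixed spread between libraries. Its outcome is not reported here, and the calls above do not rest on it.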

Additional observations from a re-analysis of the deposited data

How the results depend on the processing

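Of 18 alternatives to limma on log2(FPKM + 1), none turned the direction of a factor called in either comparison with hypoxanthine. Limma voom on recovered reads called 8 of 10 factors against inosine alone, beside 4647 of 20562 genes. Against glucose it called 7 factors, beside 4540 genes, and between inosine alone and glucose 0 genes. Leaving out 1 library at a time gave 4 to 8 factors and 2757 to 4487 genes called with hypoxanthine against inosine alone, and 2677 to 4879 genes against glucose; both lowest gene counts came without hypoxanthine replicate 3. For inosine alone against glucose it gave 1 to 7 genes, and without both libraries of the highest mitochondrial share, chosen after seeing the data, 1 gene. A minimum mean of 1 FPKM, the 6 libraries alone, and a fit with no trend each gave 0 genes there. Same-number deviations correlated from -0.27 to 0.64. Libraries of different number were not compared in this way, so whether the replicate numbers pair the libraries cannot be told. With the replicate block, hypoxanthine against glucose called 2110 genes in 6 libraries, and inosine alone against glucose 1 gene in 9 libraries and 0 in 6.

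Directions that turned belong to differences that never passed. Runx3 against inosine alone ranged from -0.14 to 0.035 on leaving out a library. Between inosine alone and glucose these ranges were -0.1 to 0.034 for Eomes, -0.023 to 0.012 for Id2, -0.2 to 0.15 for Prdm1, -0.024 to 0.15 for Zeb2, -0.11 to 0.049 for Runx3, -0.051 to 0.19 for Irf4 and -0.27 to 0.085 for Bhlhe40. Without both high mitochondrial libraries they were 0.034 for Eomes, 0.15 for Prdm1, 0.049 for Runx3, -0.042 for Irf4 and 0.085 for Bhlhe40. Median-of-ratios scaling gave 0.016 for Id2 and 0.0024 for Prdm1. The cause was not tested.

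With 1 FPKM added to both genes, which shrinks ratios of low genes, ratio differences against inosine alone became 0.3 for Zeb2 over Zeb1, -1.05 for Prdm1 over Bcl6, -2.11 for Batf over Bach2 and 0.48 for Tox over Tcf7, and against glucose 0.27, -0.94, -1.92 and 0.5 in the same order. Depth limits Tox, Zeb2 and Prdm1 most, which had 128 to 947 recovered reads per library.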
